A study of Gloeophyllum trabeum and Trametes versicolor with 18 samples.

Results

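The transcripts described here are those of *Trametes versicolor* whose level on high-melanin fungal necromass stood far above their level on both low-melanin necromass and glucose. They were chosen by TPM, a level per length that is scaled to the same total in each library. With 1 added to the mean TPM of each carbon source, a member was at least 6 times higher on high-melanin necromass than on each of the others. Its low-melanin level was also above the glucose level divided by 1.5, and its lowest high-melanin library was above its highest library of both other carbon sources. The rule found 72 of 15606 transcripts. All 3 groups were used to choose them, so every difference between the groups below describes the members and is not a test of them.

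*T. versicolor* (strain A1-ATF), a white-rot fungus, was grown for 7 days in liquid Highley's medium, a defined mineral medium. The carbon source was 0.45% (w/v) high-melanin fungal necromass, 0.45% (w/v) low-melanin fungal necromass or 1% (w/v) glucose, with 3 libraries of each. The necromass and the glucose were thus supplied at unequal concentrations. The labels do not name the fungus from which the necromass was made. Nor do they tell separate cultures from repeat libraries of one culture, so the spread behind the p-values may be technical. White-rot fungi are known for secreting oxidative enzymes that open up lignin, the aromatic polymer of wood. Fungal melanin is likewise a dark aromatic polymer, laid down in the cell wall together with chitin and glucans, and it is known to slow the decay of dead hyphae. The identifiers of this fungus are paired with no gene name or function in the sources used here, so the members are given by number: transcript 12457 stands for jgi.p|Traver1|12457. No protein or promoter sequence is shown.

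Total estimated counts ran from 18301303 to 26514709 over the 9 libraries, and mean fragment lengths were 267 to 293 bases on high-melanin necromass, 249 to 274 on low-melanin necromass and 291 to 344 on glucose. Every pair of libraries within a group differed beyond counting noise, with a chi-square of at least 17 per degree of freedom. The glucose libraries were the least alike, at 35.8 to 95.4 per pair, against 17 to 23.7 within the necromass groups. In low-melanin replicate 1 the 96 transcripts shorter than 150 bases held 26.3% of TPM, against 6% and 8.02% in low-melanin replicates 2 and 3, 4.19% to 7.22% on high-melanin necromass and 2.56% to 5.57% on glucose. The most abundant of them there, 7139 and 7140, held 13.9% and 12% of TPM in that library. In TPM it was the lowest low-melanin library for 66 of the 72 members, and for 93.8% of the 6341 transcripts that were at least as abundant on high-melanin necromass as the lowest member. In TMM-scaled CPM, a scaled count that takes no account of length, it was the lowest for 35 members. With TPM rescaled after those short transcripts were left out, the rule found 65 transcripts, 63 of them among the 72.

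Per length, 3 short transcripts made up most of the members' share of each high-melanin library, but not by counts. The 72 together held 6.63%, 6.76% and 6.82% of TPM in the high-melanin libraries, against 0.536%, 0.861% and 0.906% in the low-melanin libraries and 0.618%, 0.602% and 0.749% in the glucose libraries. The means were 6.74% ± 0.095 on high-melanin necromass, 0.768% ± 0.20 on low-melanin necromass and 0.656% ± 0.081 in glucose cultures (SD, n = 3 each). By estimated counts the shares were smaller, at 4.29% ± 0.30, 0.377% ± 0.044 and 0.265% ± 0.025 in the same order (SD, n = 3 each). Between 62.6% and 68.7% of the members' TPM on high-melanin necromass came from 3 transcripts, 14075, 3272 and 14076. The same 3 held 20.1% to 26.8% of the members' estimated counts there, and transcript 12457 held 10.7% to 19.6%. The 69 others held 2.28% ± 0.18 on high-melanin necromass, 0.170% ± 0.043 on low-melanin necromass and 0.0764% ± 0.0055 in glucose cultures (SD, n = 3 each). These are shares of the RNA of whole cultures, in which more hyphae using a transcript and more of it per hypha cannot be told apart.

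**Figure D1:**
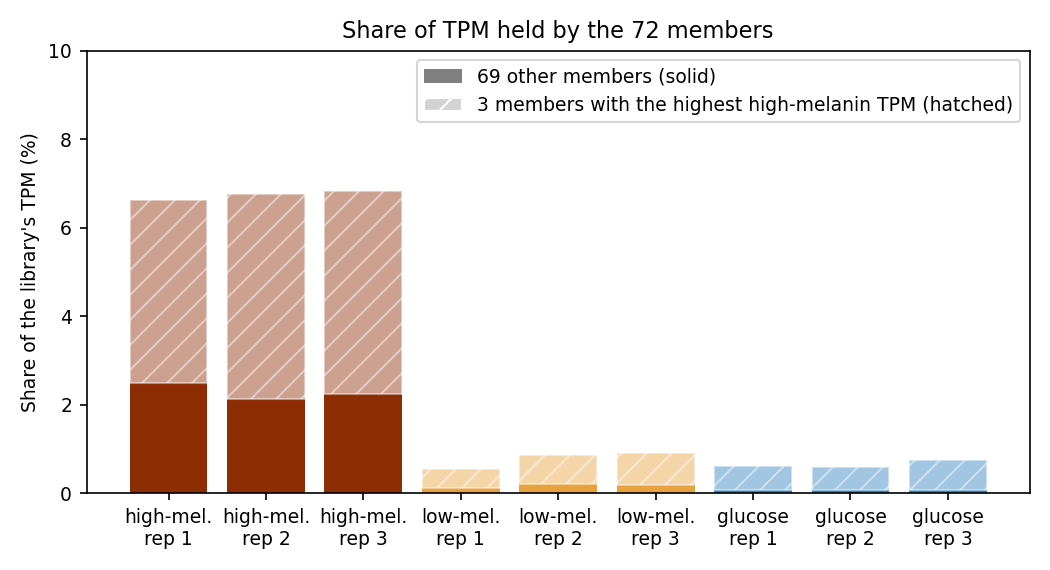
Share of each library's TPM, in percent, held by the 72 members, for the 3 high-melanin, 3 low-melanin and 3 glucose libraries. Hatched bars are the 3 members with the highest high-melanin TPM and solid bars the 69 others. The high-melanin libraries stand at 6.63% to 6.82%, and no other library passes 0.906%.

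Over the members, mean TPM on high-melanin necromass ran from 13.8 to 20374, with a median of 171 and quartiles of 56.3 and 380. The median was 12.8 on low-melanin necromass and 6.76 on glucose. Over all 15606 transcripts the medians were 8.66, 7.06 and 8.21 TPM in the same order, so that on glucose the typical member lay near the typical transcript. On high-melanin necromass 8 members passed 1000 TPM and 47 passed 100 TPM. Only 6 reached 100 TPM on low-melanin necromass and 3 on glucose. The ratio of the high-melanin level to the larger of the low-melanin and glucose levels, with 1 added to each, was 8.73 at the median and below 10 in 44 members. It was at least 20 in 11 members, at least 50 in 4 and at least 100 in 1.

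**Figure D2:**
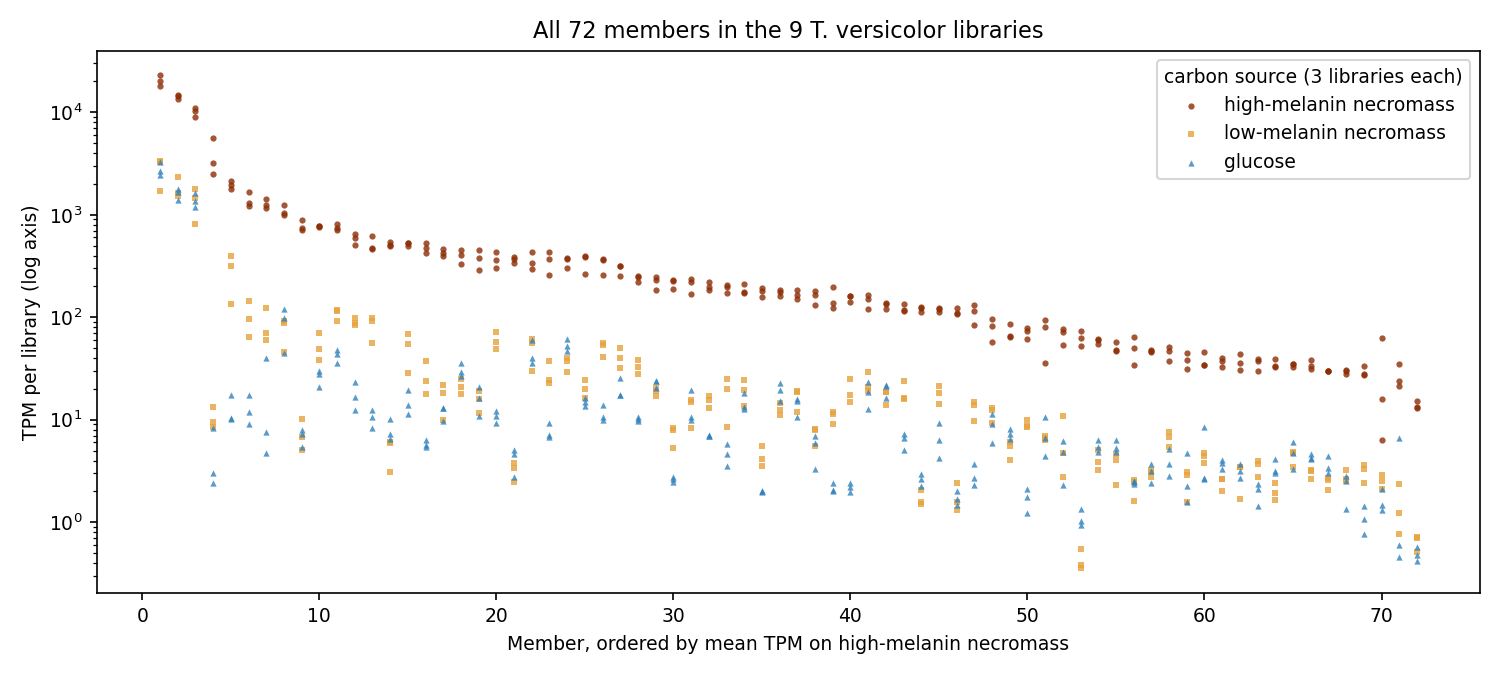
TPM of the 72 members (log axis) in each of the 9 libraries, ordered by their mean on high-melanin necromass, with circles for high-melanin, squares for low-melanin and triangles for glucose libraries. The high-melanin points lie above all others for each member, as the rule requires, while the low-melanin and glucose points cross each other along the order.

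All 72 members passed the filter on low counts, and edgeR's quasi-likelihood test over 13340 genes called each of them higher on high-melanin necromass when set against low-melanin necromass, where 26.3% of all genes tested were called higher. Each was also called higher on high-melanin necromass than on glucose, where 26.8% of all genes were. The rule used both comparisons, so these counts add nothing to it. On the count scale the median log2 fold change of the members was 3.38 over low-melanin necromass and 4.11 over glucose, and that of all genes tested was -0.01 in both. The members' values ran from 2.43 to 8.32 over low-melanin necromass and from 2.68 to 9.64 over glucose.

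The 3 most abundant members were short and were already abundant without high-melanin necromass. Transcript 14075, 342 bases long, had 17960, 22901 and 20261 TPM on high-melanin necromass, against 1717, 3270 and 3382 TPM on low-melanin necromass and 2675, 2419 and 3259 TPM on glucose. It was the third or the fourth most abundant transcript in each high-melanin library, and ranked between 24 and 39 in the other 6 libraries. Its log2 fold change on the count scale was 2.69 ± 0.19 over low-melanin necromass and 3.01 ± 0.19 over glucose (SE). Transcript 14076, also 342 bases long and next to it in number, had 8937, 10244 and 10914 TPM on high-melanin necromass, 811, 1775 and 1463 TPM on low-melanin necromass and 1378, 1197 and 1620 TPM on glucose. The pair had folds of nearly one size, 2.71 ± 0.18 and 2.98 ± 0.18 for 14076 (log2, SE). Both had whole estimated counts in all 9 libraries, as counts are where no reads are divided between similar transcripts. Transcript 3272, of 288 bases, had 14641, 13336 and 14570 TPM on high-melanin necromass, against 1626, 1535 and 2353 TPM on low-melanin necromass and 1384, 1681 and 1782 TPM on glucose. For all 3 the low-melanin and glucose libraries overlapped in TPM. On the count scale 3272 was still called higher on low-melanin necromass than on glucose, by 0.54 ± 0.18 (log2, SE), and 14075 and 14076 were not called. With fragment length as a covariate, that fold of 3272 was no longer positive.

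The member with the largest ratio was transcript 12457, of 1101 bases. It had 5559, 2526 and 3203 TPM on high-melanin necromass, against 8.42, 9.5 and 13.3 TPM on low-melanin necromass and 3.01, 8.28 and 2.41 TPM on glucose. Its high-melanin level was 330 times its low-melanin level and 676 times its glucose level with 1 TPM added to each. Among all transcripts it ranked between 16 and 32 in the high-melanin libraries, between 6213 and 7223 in the low-melanin libraries and between 7670 and 11038 in the glucose libraries. On the count scale its log2 fold change was 8.32 ± 0.61 over low-melanin necromass and 9.64 ± 0.64 over glucose (SE). The high-melanin libraries differed from each other more than for most members, with an SD of 42.3% of the mean.

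Next in ratio came 3 short transcripts whose numbers lie close together, 4698, 4699 and 4694. Transcript 4698, of 477 bases, had 744, 895 and 704 TPM on high-melanin necromass, against 5.02, 6.80 and 10.1 TPM on low-melanin necromass and 5.41, 7.96 and 7.20 TPM on glucose, a ratio of 94. Transcript 4699, of 462 bases, had 338, 388 and 366 TPM on high-melanin necromass, 2.45, 3.37 and 3.75 TPM on low-melanin necromass and 4.6, 2.75 and 5.10 TPM on glucose. Transcript 4694, of 543 bases, had 510, 546 and 494 TPM on high-melanin necromass, 3.12, 5.93 and 6.03 TPM on low-melanin necromass and 6.42, 7.23 and 10.2 TPM on glucose. These 3 stood at a few TPM on both other carbon sources, where their libraries fell close together or overlapped. Transcript 4693, of 453 bases, next to 4694 in number, was the last of the 10 largest ratios at 24.1, with 423, 459 and 395 TPM on high-melanin necromass, 9.92, 18.3 and 21.9 TPM on low-melanin necromass and 13.1, 9.77 and 13.0 TPM on glucose.

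The 5 other members among the 10 largest ratios were longer and of lower level. Transcript 12304, of 2487 bases, averaged 114 ± 7.5 TPM on high-melanin necromass, 1.77 ± 0.56 TPM on low-melanin necromass and 1.72 ± 0.27 TPM on glucose (SD, n = 3 each). Transcript 11044, of 1857 bases, averaged 120 ± 7.4, 1.72 ± 0.29 and 2.60 ± 0.35 TPM in the same order. Some of its reads were divided between similar transcripts, so that its level is uncertain by an amount that was not measured. Transcript 5318, of 1587 bases, averaged 62.8 ± 10 TPM on high-melanin necromass and was at the lowest low-melanin level of all members, 0.426 ± 0.10 TPM, against 1.11 ± 0.21 TPM on glucose (SD, n = 3 each). Transcripts 15220 and 4286 were intermediate on low-melanin necromass. Transcript 15220 averaged 177 ± 19, 4.39 ± 1.0 and 2.00 ± 0.018 TPM and transcript 4286, the longest member at 3087 bases, 215 ± 25, 7.16 ± 1.6 and 2.63 ± 0.15 TPM on high-melanin necromass, low-melanin necromass and glucose (SD, n = 3 each).

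Not all members were specific to high-melanin necromass in the sense of equal levels on the other carbon sources. In TPM every low-melanin library was above every glucose library for 30 members, and so it was for 19.3% of all 15606 transcripts. Every low-melanin library was below every glucose library for 13 members, and for 34.3% of all transcripts. In the comparison of low-melanin necromass with glucose, 34 of the 72 (47.2%) were called higher on low-melanin necromass, where 30.4% of all genes tested were, and 26 of those by at least 2-fold, where 12.1% of all genes were. Another 8 (11.1%) were called lower, against 32.4% of all genes, and 30 were not called. The rule keeps out transcripts that are much lower on low-melanin necromass, so the split between higher and lower is partly set by it and is given only as a description. The median log2 fold change was 0.48 for the members and -0.04 for all genes. With upper-quartile scaling 27 members were called higher and 15 lower, a share of 64.3% higher among the called members in place of 81%, as the median of all genes moved to -0.28. Of all genes 21.4% were then called higher and 44.2% lower. By library size alone the members' counts were again 27 and 15, against 20.2% and 45.5% of all genes, with a median of all genes of -0.32.

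**Figure D3:**
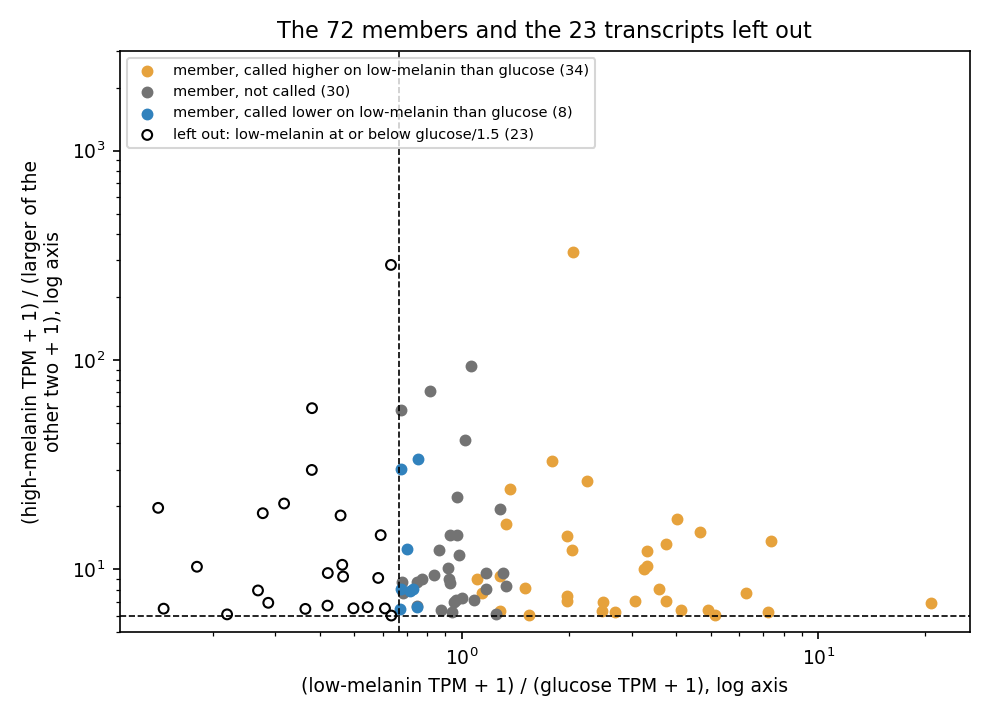
Ratio of the high-melanin level to the larger of the low-melanin and glucose levels against the ratio of the low-melanin to the glucose level, each as mean TPM plus 1 and on log axes, for the 72 members and the 23 transcripts left out because their low-melanin level was at or below glucose divided by 1.5. Dashed lines are the limits of the rule. Of the members, 34 were called higher and 8 lower on low-melanin necromass than on glucose, and the member at a ratio of 330 is transcript 12457.

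The members with the highest ratio of low-melanin to glucose level, again with 1 TPM added, were graded over the 3 carbon sources. Transcript 6843, of 465 bases, had 1765, 1959 and 2129 TPM on high-melanin necromass, 134, 395 and 315 TPM on low-melanin necromass and 10.4, 10.1 and 17.3 TPM on glucose. On the count scale it was higher on low-melanin necromass than on glucose by 4.75 ± 0.32 (log2, SE), and higher again on high-melanin necromass by 2.63 ± 0.28 (log2, SE). Transcripts 9616, 9617 and 9618, of 342, 411 and 240 bases, are the only run of at least 3 members with consecutive numbers, and all were graded in the same way. Transcript 9616 had 1291, 1671 and 1219 TPM on high-melanin necromass, 63.9, 145 and 95.7 TPM on low-melanin necromass and 12, 9.06 and 17.6 TPM on glucose. Transcript 9617 averaged 476 ± 50, 26.3 ± 9.8 and 5.79 ± 0.48 TPM and transcript 9618 averaged 520 ± 88, 81.9 ± 23 and 10.5 ± 2.1 TPM in the same order (SD, n = 3 each). Their log2 fold changes on low-melanin necromass over glucose were 3.31 ± 0.28, 2.50 ± 0.20 and 3.24 ± 0.21 (SE). The transcripts numbered just before and after the run, 9615 and 9619, stayed below 10 TPM in all 9 libraries. At that low level 9619 was still called higher on high-melanin necromass than on low-melanin necromass and glucose, by 1.67 ± 0.20 and 0.71 ± 0.18 (log2, SE). Transcript 9615 was called higher in neither comparison. It was called lower on high-melanin necromass than on glucose, with a log2 fold change of -0.97 ± 0.16 (SE).

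At the other end, transcripts 7622, 4694 and 3744 had the lowest ratio of low-melanin to glucose level with 1 TPM added to each. Transcript 7622, of 1065 bases, had 367, 306 and 379 TPM on high-melanin necromass, 29.3, 40.0 and 37.4 TPM on low-melanin necromass and 46.5, 61.3 and 52.1 TPM on glucose. All its low-melanin libraries were below its glucose libraries, with a log2 fold change of -0.44 ± 0.12 on the count scale (SE). Transcript 3744, of 1899 bases, averaged 35.0 ± 3.5, 2.00 ± 0.37 and 3.45 ± 0.61 TPM on high-melanin necromass, low-melanin necromass and glucose (SD, n = 3 each). Transcript 5318, described above, was lowest without that addition and had the most negative fold of all members, a log2 fold change of -1.27 ± 0.22 on the count scale (SE), while 4694 was at -0.39 ± 0.21 and was not called.

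Of the 10 most abundant members, 11402, 7800 and 3824 are not yet described. Transcript 11402, of 1293 bases, had 1422, 1244 and 1166 TPM on high-melanin necromass and 59.6, 123 and 69.8 TPM on low-melanin necromass, against 39.6, 4.71 and 7.53 TPM on glucose, where replicate 1 stood well above replicates 2 and 3. Transcript 7800, of 558 bases, had 1037, 991 and 1254 TPM on high-melanin necromass, 46.2, 88.2 and 92.8 TPM on low-melanin necromass and 97.5, 45 and 121 TPM on glucose, and its low-melanin and glucose libraries overlapped. Transcript 3824, of 408 bases, had 760, 781 and 778 TPM on high-melanin necromass, 38.3, 69.7 and 49.2 TPM on low-melanin necromass and 20.7, 29.6 and 27.9 TPM on glucose. Its high-melanin libraries were almost level, and its low-melanin libraries were all above its glucose libraries.

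The spread among the high-melanin libraries was somewhat larger over the members than over all transcripts of at least their lowest level. The SD over the 3 libraries was 11.5% of the mean TPM at the median of the members, with quartiles of 7.95% and 17.5%. For the 6341 transcripts at least as abundant as the lowest member it was 8.75%, with quartiles of 5.37% and 13.1%. Among the members the SD was smallest for transcript 796, at 29.8, 29.7 and 30.1 TPM, and for transcript 3824, at 0.585% and 1.45% of the mean. It was largest for transcript 568, which had 62.5, 15.8 and 6.30 TPM on high-melanin necromass, 2.12, 2.51 and 2.91 TPM on low-melanin necromass and 1.32 to 2.10 TPM on glucose. Part of the reads of 568 were divided between similar transcripts. It is the one member whose call as higher on high-melanin necromass was lost under some alternative. Over low-melanin necromass its fold change of 3.34 ± 0.86 on the log2 scale (SE, adjusted p = 0.0149 in edgeR's test) had an adjusted p of 0.0518 without low-melanin replicate 2 (log2 fold change 3.29), 0.0528 without low-melanin replicate 3 (3.39) and 0.0541 in a fit of the 6 libraries compared. Over glucose its log2 fold change of 4.07 ± 0.89 (SE) was 3.05 with fragment length as a covariate (adjusted p = 0.11 in edgeR's test). Transcript 4684 followed, with 80.9, 94.0 and 35.6 TPM on high-melanin necromass, 6.59, 6.39 and 6.96 TPM on low-melanin necromass and 10.7, 6.61 and 4.39 TPM on glucose. In TPM the highest of the 3 high-melanin libraries was replicate 1 for 23 members, replicate 2 for 17 and replicate 3 for 32, against 25.8%, 15% and 59.2% of the 6341 transcripts. In CPM it was replicate 1 for 29, replicate 2 for 28 and replicate 3 for 15, against 34.1%, 34.7% and 31.2%, so the order of the libraries depended on the unit.

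The rule set no limit on coding length or on the division of reads between similar transcripts, although both enter its TPM values. The members were 201 to 3087 bases long with a median of 1203, against 1110 for all transcripts. Under 500 bases were 15 of the 72 (20.8%), against 16.9% of all transcripts, but 7 of the 10 members with the highest high-melanin TPM were this short. TPM divides by an effective length that depends on the fragment length, so the folds of the short members were set beside those in CPM. The log2 fold over low-melanin necromass was larger in TPM by 0.19 at the median of the 15 short members and by 0.17 at that of the 57 others. Over glucose it was smaller by 0.13 in the short members and larger by 0.06 in the others. An estimated count that was not whole, within 0.01, in at least 1 library was found in 6 members (8.33%) and in 6.23% of all transcripts.

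Members lay near each other in number more often than their share of all transcripts. Whether the numbers follow the order of genes on the chromosomes is not given in the sources used here. Of the 72 members 13 (18.1%) were numbered directly next to another member. Of the 143 numbers directly before or after a member, 13 (9.09%) were members, against 0.461% of all transcripts. For the 46 transcripts found by the same rule with the 2 necromass types exchanged, 4 of the 91 adjacent numbers (4.4%) belonged to that set, against 0.295% of all transcripts. Of the non-members directly next to a member 126 were tested, and 45 of them (35.7%) were called higher in the comparison of high-melanin with low-melanin necromass, against 26.3% of all genes tested. Called lower were 23.8%, against 27.8% of all genes. The share called higher was 27.4% at a distance of 2 numbers, 26.3% at 3 to 5 and 24.8% at 6 to 10. Called higher by at least 2-fold were 14.3% directly next to a member and 14.2% at a distance of 2 numbers. At 3 to 5 it was 12.2% and at 6 to 10 it was 9.57%, against 11.8% of all genes tested. The non-members include transcripts that passed both fold limits, such as 4697 and 4700. These shares carry no test, as adjacent transcripts are not independent.

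The densest group of numbers was 4693 to 4704, which holds the 4 members 4693, 4694, 4698 and 4699. It was described after its values were seen. Of its 12 transcripts 9 were at least 6 times higher on high-melanin necromass than on both other carbon sources, and these 9 were all 453 to 549 bases long with whole estimated counts. The 5 that are not members, 4696, 4697, 4700, 4702 and 4704, were kept out because their low-melanin level was at or below glucose divided by 1.5. Transcript 4700 missed that limit narrowly, with a ratio of low-melanin to glucose level of 0.633 in TPM. Low-melanin replicate 1, the library rich in very short transcripts, was the lowest of its low-melanin libraries. In CPM, at means of 15.6 on low-melanin necromass and 20.3 on glucose, 4700 was above that limit. Its log2 fold change between the 2 was -0.38 ± 0.23 (SE), and 4700 was not called there. It had 13190, 18465 and 12759 TPM on high-melanin necromass, 21.8, 34.7 and 39.4 TPM on low-melanin necromass and 41.3, 46.2 and 65.6 TPM on glucose, a level that only 14075 and, in replicates 1 and 3, 3272 passed among the members. Transcript 4702 had 4233, 4965 and 4360 TPM on high-melanin necromass, 16.5, 30.2 and 37.8 TPM on low-melanin necromass and 58.7, 54.4 and 114 TPM on glucose. Transcripts 4696, 4697 and 4704 averaged 363 ± 52, 328 ± 21 and 364 ± 30 TPM on high-melanin necromass, 4.6 ± 0.67, 3.91 ± 0.054 and 3.64 ± 1.8 TPM on low-melanin necromass and 16.6 ± 7.6, 16.8 ± 5.7 and 11.2 ± 2.4 TPM on glucose (SD, n = 3 each). Together the 9 held 2.05%, 2.69% and 2% of TPM in the high-melanin libraries, against 0.00682% to 0.0132% in the low-melanin libraries and 0.0164% to 0.0276% in the glucose libraries.

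The 3 other transcripts between 4693 and 4704 did not share the pattern. Transcript 4695, of 417 bases, averaged 7.05 ± 1.5, 3.92 ± 0.85 and 10.1 ± 4.2 TPM on high-melanin necromass, low-melanin necromass and glucose (SD, n = 3 each). Transcript 4701, of 1548 bases, was highest on low-melanin necromass, with 11 ± 1.1, 28.2 ± 4.4 and 6.94 ± 1.9 TPM in the same order (SD, n = 3 each). Transcript 4703, of 840 bases, was at 107 ± 8.2, 23.9 ± 5.8 and 89.0 ± 21 TPM (SD, n = 3 each), so that it was low on low-melanin necromass and overlapped between high-melanin necromass and glucose.

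**Figure D4:**
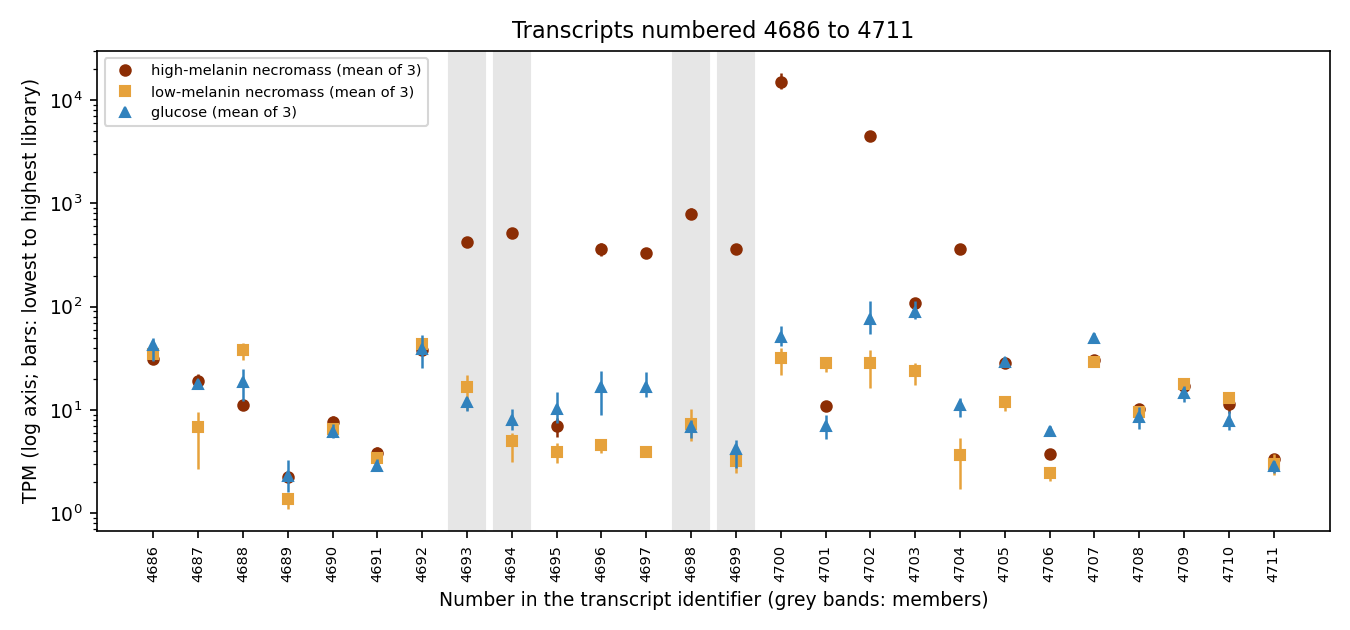
TPM (log axis) of the transcripts numbered 4686 to 4711 on each carbon source, with the mean of 3 libraries as a point and the lowest to highest library as a bar; grey bands mark the 4 members. The 9 transcripts that stand apart on high-melanin necromass lie between numbers 4693 and 4704, and 4700 and 4702 reach 14805 and 4519 TPM.

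The limits of the rule cut through a continuous range. Just inside the limit over glucose were transcripts 797 and 6367, at ratios of 6.23 and 6.38, and just outside were 4653 and 11417, at 5.49 and 5.31. Just inside the limit over low-melanin necromass were 5311 and 5572, at 6.05 and 6.06, and just outside were 11233 and 7587, at 5.99 and 5.94. Transcript 11233 averaged 355 ± 62, 58.5 ± 10 and 9.68 ± 2.6 TPM and the member 5572 averaged 365 ± 66, 59.5 ± 11 and 10.8 ± 1.5 TPM on high-melanin necromass, low-melanin necromass and glucose (SD, n = 3 each), so the 2 differed by less than the spread between libraries. On the low-melanin side of the rule, 7622, 4694 and 3744 lay just inside at a ratio to glucose of 0.673, and 10509 and 4700 just outside at 0.634 and 0.633. No transcript was removed by the requirement that libraries do not overlap, and 23 were removed by the limit on low-melanin over glucose.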

How the data were processed

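RNA was sequenced from 9 libraries of *T. versicolor*, 3 per carbon source; groups follow the sample titles. Whether the libraries kept strand, and which transcript set and build the reads were set against, is not given in the sources used here. The tools named are kallisto 0.51.1 and DESeq2 1.48.2, per the submitters' processing notes. The authors deposited estimated counts, which kallisto divides between similar transcripts, and TPM values, with lengths and effective lengths per transcript. Of all lengths 99.6% are multiples of 3, hence coding lengths.

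TPM values chose and describe the members. Estimated counts were rounded, filtered with filterByExpr (13340 genes kept), scaled with TMM and fitted over all 9 libraries with carbon source as the only term in edgeR 4.0.16 (R 4.3.3, robust glmQLFit and glmQLFTest), with Benjamini-Hochberg adjustment over all genes tested and a threshold of 0.05. Standard errors are the size of the log2 fold change over the root of its F statistic. Alternatives were DESeq2 1.42.0, other scalings, filters and terms, other limits of the rule, and each library left out.

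The members, the lists and the tests were chosen with earlier results of these data known. Transcripts were named by rule: the 10 highest high-melanin levels, the 10 largest ratios, those at the limits of the rule, the extremes of the low-melanin to glucose ratio and of the spread, and runs of consecutive numbers. Lists by gene function could not be made because the identifiers carry no annotation here. Same-numbered libraries of different groups had correlations of their deviations from -0.15 to 0.034, which gave no sign that the numbers pair the libraries. With 3 libraries per group this cannot show that they were unpaired, and the labels do not say. The libraries of the other fungus were not used.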

Additional observations from a re-analysis of the deposited data

How the results depend on the processing

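The number of members followed the limit on the fold: 128 transcripts met the rule at 4-fold, all 72 among them, and 44 at 8-fold. Other settings gave 63 to 95, and TMM-scaled CPM in place of TPM gave 63, of which 60 were among the 72. Without 1 library the rule found 65 to 75. All 72 members were called higher on high-melanin necromass in both comparisons under every alternative run except those that ended the call of transcript 568: a fit of the 6 libraries compared and leaving out low-melanin replicate 2 or 3 (71 over low-melanin necromass in each, 72 without any other library), and fragment length as a covariate over glucose (71, adjusted p of 568 = 0.11). Of the 72, 66 had whole estimated counts in all 9 libraries, and all 66 were called in both comparisons of the main fit. No separate fit was made for them. For low-melanin necromass against glucose, 30 to 36 members were called higher and 6 to 10 lower when 1 library was left out. Upper-quartile scaling gave 15 members called lower in place of 8, and so did library size alone. With the replicate number as a block the counts were 72, 72, 33 higher and 9 lower. With fragment length as a covariate, the log2 fold changes of 12457 and 3272 on low-melanin necromass over glucose were -0.02 and -0.07. Without it they were 1.31 and 0.54. Mean fragment lengths were 249 to 274 bases on low-melanin necromass and 291 to 344 on glucose. These ranges do not overlap, so fragment length and carbon source cannot be fully told apart here, and the cause was not tested. The members' share of high-melanin TPM, 6.74%, was 4.29% by estimated counts, 4.7% without transcript 14075 and 7.11% when transcripts under 150 bases were left out, an alternative chosen after the data were seen. Without 1 high-melanin library it was 6.7% to 6.79%. Fewer than 10 estimated counts in some library were found for 2 members, 9214 of 201 bases and 5934 of 444 bases. No member had 0.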
